A study of Mus musculus with 4 samples.

Results

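Receptors for the hormones of pregnancy were examined in mouse dermal cells: *Esr1* (estrogen receptor alpha), *Pgr* (progesterone), *Ghr* (growth hormone), *Oxtr* (oxytocin), *Rxfp1* (relaxin) and *Nr3c1* (glucocorticoid), together with *Greb1*, a gene that estrogen induces. The genes were chosen by name, for their hormone. Of 8 genes listed, 7 had a probe set in the probe annotation used, with 22 of the 45101 probe sets. That annotation pairs none with *Prlr*, the prolactin receptor, which was not analysed here. The array measured 18193 genes by probe sets that name a single gene. Of the 7 genes, 6 were detected on at least 1 array, with 15 probe sets, and 11 of these probe sets were detected on all 4 arrays.

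The dermal cells came from 10-week-old female C57BL/6 mice, with 1 array for each of 4 conditions. The virgin array holds ventral skin of virgin mice, the dorsal array dorsal skin at 15 dpc (days post coitum) and the abdominal array ventral skin at 15 dpc, all after intradermal injection of the vehicle DMSO. The PP2 array holds ventral skin at 15 dpc after injection of PP2, an inhibitor of Src family kinases. Mice had 2 injections a day over 4 days, which in the pregnant groups began at 12 dpc, so the vehicle or a drug in vehicle had been injected in every condition. The sample descriptions give 16 dpc where the titles give 15 dpc. Fat was cut away and the skin digested with dispase, collagenases and hyaluronidase, so the RNA is that of released cells and not of whole dermis. The sources used here do not say whether an array pools several mice.

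As background, the receptors belong to 3 kinds. *Esr1*, *Pgr* and *Nr3c1* are nuclear receptors, which bind a steroid and then act on DNA as transcription factors. *Ghr*, like *Prlr*, is a cytokine-type receptor that signals through the kinase JAK2 to the transcription factor STAT5. *Oxtr* and *Rxfp1* sit in the cell membrane and couple to G proteins, *Oxtr* mainly to calcium release and *Rxfp1* mainly to cyclic AMP. In the uterus and mammary gland estrogen raises *Pgr*, *Oxtr* and *Greb1*, and in skin fibroblasts estrogen, relaxin and glucocorticoids are known to act on the matrix.

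Each value is a MAS5 signal, an intensity in arbitrary units that combines the probes of a probe set, with a call of present, marginal or absent. A probe set was taken as detected where it was called present, and the probe set with the largest average log2 signal over the arrays represents its gene. With 1 array per condition there is no replicate, no error and no test. A ratio of signals over 2 with a present call on the brighter array is counted as a difference between those arrays, beside the share of all detected genes that passes the same limit. The share of probe sets called present ran from 58.4% to 59.7% over the 4 arrays. For *Gapdh*, the control probe set at the 3′ end read 1.41 times that at the 5′ end on the abdominal, 2.51 times on the virgin, 2.97 times on the dorsal and 5.84 times on the PP2 array, a quotient that grows as RNA is degraded. All 8 fibroblast markers, *Col1a1* and *Pdgfra* among them, were present on every array. Markers of epidermal keratinocytes (7 of 7), endothelium (6 of 6) and Schwann cells (4 of 4) were also present on all 4 arrays, so the preparations were mixtures. In such a mixture, fewer cells of a type and less RNA per cell cannot be told apart.

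By representative probe set, *Oxtr* and *Greb1* were the genes past the limit in the comparisons with 15 dpc abdominal skin, and estrogen regulates both in the uterus and the mammary gland. Their promoters are shown from 250 bases before the annotated start to 50 bases from it, 5′ to 3′ in the direction of the gene. Whether these windows take part in that regulation was not tested. Sequences and positions are those of RefSeq for GRCm38.p6, with *Oxtr* at chr6:112489776-112490075 on the minus strand and *Greb1* at chr12:16800837-16801136 and chr12:16757190-16757489, both on the minus strand. Capitals mark GGTCA or its reverse complement TGACC, the core of the site that estrogen receptors bind.
Oxtr promoter: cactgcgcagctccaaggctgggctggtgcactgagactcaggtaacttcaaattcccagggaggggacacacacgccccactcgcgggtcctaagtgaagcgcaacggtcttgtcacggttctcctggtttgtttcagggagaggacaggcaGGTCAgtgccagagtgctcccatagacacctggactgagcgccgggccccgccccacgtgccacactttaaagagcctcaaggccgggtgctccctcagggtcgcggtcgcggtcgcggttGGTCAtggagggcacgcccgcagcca
Greb1 promoter 1: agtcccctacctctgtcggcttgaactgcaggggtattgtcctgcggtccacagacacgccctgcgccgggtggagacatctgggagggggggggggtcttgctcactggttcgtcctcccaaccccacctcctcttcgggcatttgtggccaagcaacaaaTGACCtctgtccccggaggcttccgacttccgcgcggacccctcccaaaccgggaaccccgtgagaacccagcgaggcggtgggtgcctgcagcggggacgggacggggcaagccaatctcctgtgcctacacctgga
Greb1 promoter 2: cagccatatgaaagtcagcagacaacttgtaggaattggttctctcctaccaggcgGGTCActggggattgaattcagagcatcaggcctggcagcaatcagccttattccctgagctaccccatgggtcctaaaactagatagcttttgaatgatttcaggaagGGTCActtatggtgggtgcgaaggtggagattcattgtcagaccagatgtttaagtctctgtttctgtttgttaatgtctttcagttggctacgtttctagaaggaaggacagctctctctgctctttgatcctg
Counted from the start site, the *Oxtr* promoter holds the 5-base core at -97 and 25, the first *Greb1* promoter at -88 on the other strand, and the second *Greb1* promoter at -194 and -85. Both orientations of the core separated by 3 bases, the full response element, occurred in 0 of the 11 promoters listed for 6 of the genes (*Esr1*, *Pgr*, *Prlr*, *Ghr*, *Oxtr* and *Greb1*), and the core alone in 4 of them. Over all 32851 promoters of that length, 40.5% held the core and 0.07% the full element. The matches describe the letters in these windows, and the arrays did not measure binding.

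*Oxtr*, which makes uterine muscle and the myoepithelial cells of the mammary gland contract in response to oxytocin, had the widest range of the receptors detected on all 4 arrays. Its signal was 264 on the virgin, 186.2 on the dorsal, 817.9 on the abdominal and 736.7 on the PP2 array, with a present call on all 4. The 2 arrays of 15 dpc abdominal skin were thus high, and the virgin and dorsal arrays low. The abdominal signal was 3.10-fold the virgin signal (log2 ratio 1.63), and 143 of 12744 genes, 1.12%, were as far or farther in that direction. Against dorsal skin of the same gestational age it was 4.39-fold higher (log2 ratio 2.13), and 146 of 12808 genes, 1.14%, were as far or farther. The abdominal signal was 1.11-fold the PP2 signal, far under the limit, and the PP2 signal was 2.79-fold the virgin and 3.96-fold the dorsal signal. Virgin and dorsal skin, next to each other in order, differed by 1.42-fold. Among the 11086 genes detected on all 4 arrays by their representative probe set, the median range was 0.59 on the log2 scale, and 2.06% had a range wider than the 2.13 of *Oxtr*. A second *Oxtr* probe set, with signals of 4.415, 6.668, 77.36 and 46.6 in the same order of arrays, was called absent on all 4 and gives no ratio.

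Smooth muscle and myoepithelial cells, adipocytes and mammary epithelium are cells of skin and its glands whose markers can be set beside *Oxtr*. The summed signal of 8 smooth muscle and pericyte markers, 7 of them present on each array and *Cnn1* on none, was 43339 on the virgin, 31066 on the dorsal, 48057 on the abdominal and 32264 on the PP2 array. It was therefore lowest on the dorsal array as *Oxtr* was, but near the dorsal value on the PP2 array, where *Oxtr* stayed high. Members of this sum differed between those arrays. *Acta2* (7569 dorsal, 10345 PP2), *Tagln* (2553, 3976), *Myh11* and *Notch3* were higher on the PP2 than on the dorsal array. *Rgs5* (14441 dorsal, 12604 PP2), *Cspg4* (2676, 1286) and *Des* were lower. Over 6 adipocyte markers the sum was 33025, 28767, 44108 and 22708 on the virgin, dorsal, abdominal and PP2 arrays, lowest with PP2. Of these markers, *Lep* and *Cidec* were present on none. Most of this sum was *Fabp4*, at 31579, 26062, 41761 and 21517. *Adipoq* was also highest on the abdominal array, but *Pnpla2* and *Lipe* were highest on the dorsal array. Of 13 mammary epithelial markers, 3 were present on the virgin, 6 on the dorsal, 6 on the abdominal and 7 on the PP2 array, with summed signals of 5139, 9111, 5770 and 5683. The largest signals in each sum were those of *Prom1*, which is also in the dermal papilla list, and *Epcam*. On the dorsal array *Prom1* and *Epcam* read 4157 and 3146, and *Cldn4* and *Krt8* were also highest there. *Krt18*, present on all 4 arrays at low signals, read 45.08, 35.97, 73.01 and 58.87, in the order of arrays that *Oxtr* had. The milk protein genes *Wap*, *Lalba*, *Csn3* and *Csn1s1*, and the defining genes *Krt19* and *Elf5*, were present on none. Of the other milk protein genes in the list, *Csn1s2a* read 31.76, 33.43, 49.53 and 33.97 and was present on the abdominal and PP2 arrays, the 2 on which *Oxtr* was high, and *Csn2* was present on all 3 arrays of pregnant mice and absent on the virgin array. Hair shaft and sheath markers summed to 1890, 2441, 14642 and 3751, highest on the abdominal and next on the PP2 array. *Krt25*, of that list, read 19.58, 70.43, 3524 and 635.4 and was present on every array. *Lef1*, the largest signal of the list on the virgin and dorsal arrays, read 1100, 1389, 556.5 and 1558, lowest on the abdominal array. The part of these cell types in the *Oxtr* signal was not tested.

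**Figure D1:**
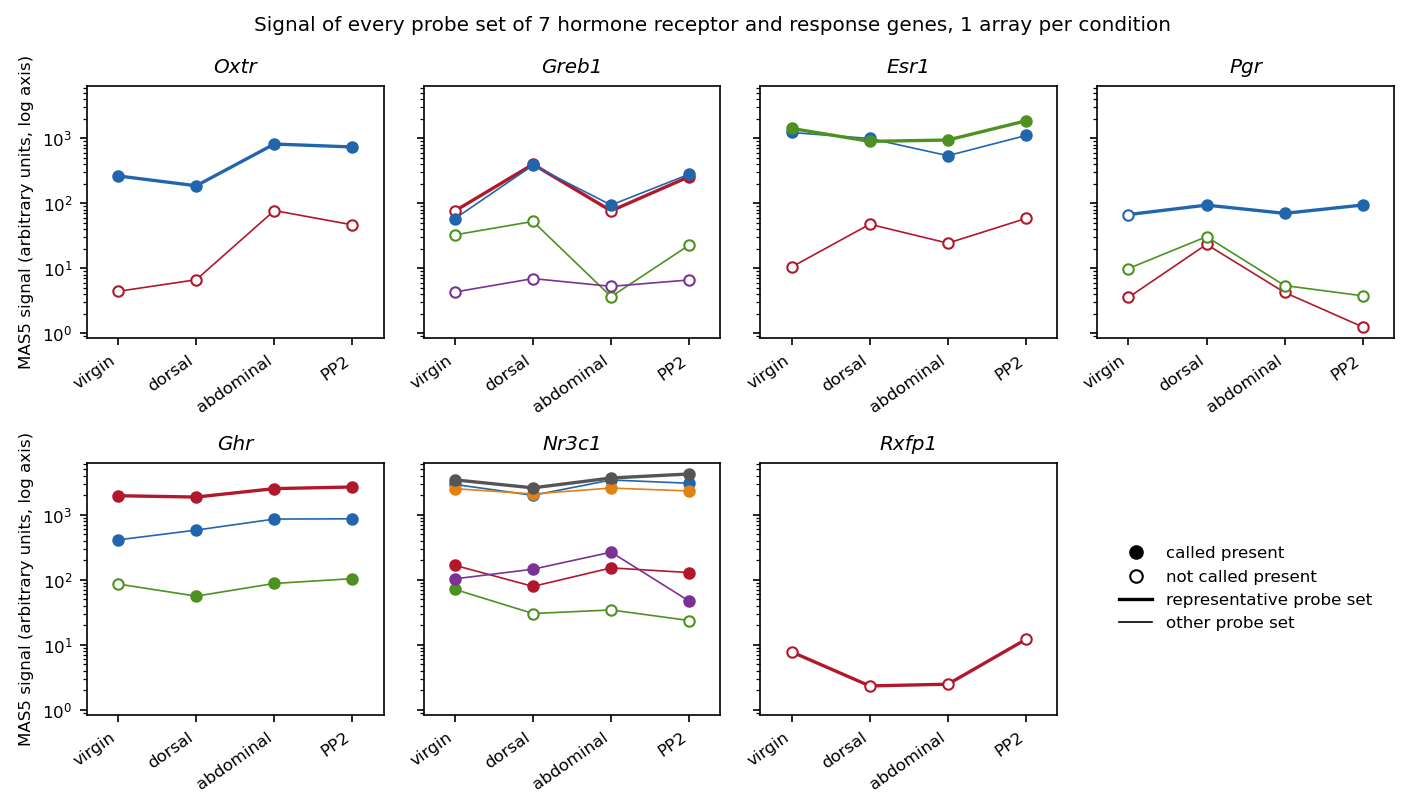
MAS5 signal (arbitrary units, log axis) of every probe set of 7 genes on the 4 arrays, 1 line per probe set, with filled points called present, open points not called present, and a thick line for the probe set that represents the gene. *Oxtr* is high on the abdominal and PP2 arrays (817.9 and 736.7), *Greb1* on the dorsal and PP2 arrays (399 and 257.7), and no point of *Rxfp1* is filled.

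*Greb1*, a cofactor of the estrogen receptor and one of its induced genes, had another order. The representative probe set read 76.26 on the virgin and 76.51 on the abdominal array, absent on both, and 399 on the dorsal and 257.7 on the PP2 array, present on both. A second probe set, present on all 4 arrays, read 58.09 on the virgin, 385.5 on the dorsal, 94.09 on the abdominal and 280.8 on the PP2 array. Both probe sets thus put the dorsal array first, PP2 next and the virgin and abdominal arrays below. The dorsal signal was at least 5.22-fold the abdominal signal by the representative probe set, a bound because the abdominal array had no present call, and 4.10-fold by the second. Of 12808 genes, 81 (0.632%) were as far or farther toward dorsal skin. The PP2 signal was at least 3.37-fold the abdominal signal by the first probe set and 2.98-fold by the second, and 142 of 12955 genes (1.10%) were as far or farther. Against the virgin array, the dorsal signal was at least 5.23-fold and 6.64-fold higher and the PP2 signal at least 3.38-fold and 4.83-fold higher by the same probe sets. Between abdominal skin at 15 dpc and virgin skin, the second probe set gave a ratio of 1.62, under the limit, and the first gave none. The other 2 *Greb1* probe sets were present on no array.

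Beside *Greb1*, the summed signal of 8 dermal papilla markers was 27186 on the virgin, 14400 on the dorsal, 10081 on the abdominal and 18665 on the PP2 array. It was lower on the abdominal than on the dorsal and PP2 arrays, as *Greb1* was, but highest on the virgin array, where *Greb1* was low and where *Crabp1* alone read 18584. *Sox2*, of the same list, read 831.5, 3635, 526.5 and 2425, high on the dorsal and PP2 arrays as *Greb1* was. No other marker of that list had those 2 arrays highest. Of 4 Schwann cell markers, with sums of 29781, 33767, 29614 and 24338, *Sox10* (561.4, 3162, 864.4 and 1720), *Ngfr* (229.1, 826.7, 325.5 and 421.3) and *S100b* (1603, 4306, 1527 and 3616) were also highest on the dorsal and next on the PP2 array, and *Mbp* was not. Keratinocyte markers summed to 88639, 140370, 108745 and 64646, highest on the dorsal and lowest on the PP2 array, and the mammary sum was also highest on the dorsal array. The *Gapdh* quotient was highest on the PP2 array and next highest on the dorsal array, the 2 arrays on which *Greb1* was high. The same quotient for actin was 4.14 on the dorsal, 2.70 on the PP2, 2.64 on the virgin and 2.03 on the abdominal array. The part of these markers and of RNA quality in the *Greb1* signal was not tested.

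*Esr1*, the receptor through which estrogen acts on most of its targets, was present on all 4 arrays by 2 probe sets. The representative probe set read 1421 on the virgin, 898.7 on the dorsal, 942.6 on the abdominal and 1862 on the PP2 array. It was high on the PP2 and virgin arrays and lower on the other 2. The virgin signal was 1.51-fold the abdominal signal, a difference reached toward virgin skin by 8.69% of genes, and abdominal and dorsal skin lay within 1.05-fold of each other. PP2 skin was 1.98-fold over abdominal skin, just under the limit of 2, and 3.84% of genes were as far or farther. The second probe set read 1231, 995, 540.8 and 1107 in the order virgin, dorsal, abdominal and PP2. By it the abdominal array alone was low, with the virgin signal 2.28-fold, the dorsal signal 1.84-fold and the PP2 signal 2.05-fold above it. The 2 probe sets agreed on the lower signal of 15 dpc abdominal skin against virgin and PP2 skin, but only the second passed the limit, and they disagreed on where dorsal skin lies. The remaining probe set was absent on all 4 arrays.

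*Pgr*, the progesterone receptor and itself an estrogen-induced gene in many tissues, was near the limit of detection. Its representative probe set read 67.12 on the virgin (absent), 93.83 on the dorsal, 70.06 on the abdominal and 94.15 on the PP2 array. The 4 values lay within 1.40-fold of each other. Dorsal and PP2 skin were each 1.34-fold over abdominal skin, and the abdominal signal was at least 1.04-fold the virgin signal. In this small span the dorsal and PP2 arrays came first, as they did for *Greb1*. The other 2 probe sets were absent on every array.

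*Ghr*, the growth hormone receptor, was detected on all 4 arrays and differed little. Its representative probe set read 1970 on the virgin, 1879 on the dorsal, 2535 on the abdominal and 2684 on the PP2 array. The 2 arrays of 15 dpc abdominal skin were highest, with the abdominal signal 1.29-fold over virgin and 1.35-fold over dorsal skin, and 19.6% of genes were as far or farther in each of these comparisons. A second probe set read 411.9, 582.4, 861.4 and 868.9 in that order of arrays. By this one the abdominal signal was 2.09-fold the virgin signal, past the limit, and 1.48-fold the dorsal signal. The remaining one, present on 3 arrays, put the abdominal signal at least 1.02-fold over virgin and 1.57-fold over dorsal skin. PP2 and abdominal skin differed by 1.01-fold to 1.19-fold over the 3 probe sets, and all 3 placed both above dorsal skin. The one present on 3 arrays read 86.13 (absent), 56.1, 87.92 and 104.2 in the order virgin, dorsal, abdominal and PP2. By it abdominal skin lay nearest to virgin skin.

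*Nr3c1*, the glucocorticoid receptor, was present on every array by 5 of its 6 probe sets. The representative probe set read 3455 on the virgin, 2604 on the dorsal, 3692 on the abdominal and 4258 on the PP2 array. Dorsal skin was lowest here, with the abdominal signal 1.42-fold above it, and 16.1% of genes were as far or farther. Virgin and abdominal skin differed by 1.07-fold and PP2 and abdominal skin by 1.15-fold. The 5 probe sets present on all arrays gave ratios of abdominal over dorsal skin from 1.23 to 1.93, all in 1 direction and all under the limit. One of them departed from the rest in the other comparisons. It read 103.5 on the virgin, 145.7 on the dorsal, 266.6 on the abdominal and 46.95 on the PP2 array, so that abdominal skin was 2.58-fold over virgin and 5.68-fold over PP2 skin. The other 4 stayed within 1.18-fold in both comparisons. A sixth probe set was present on the virgin array alone, at 71.25, where it was at least 2.07-fold over the abdominal array. Whether these probe sets read different transcripts was not tested.

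*Rxfp1*, the relaxin receptor, was called absent on all 4 arrays by its only probe set, at signals of 7.775, 2.327, 2.473 and 12.14 on the virgin, dorsal, abdominal and PP2 arrays. The call says that the probe set did not exceed its mismatch probes and sets no upper limit on the transcript.

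**Figure D2:**
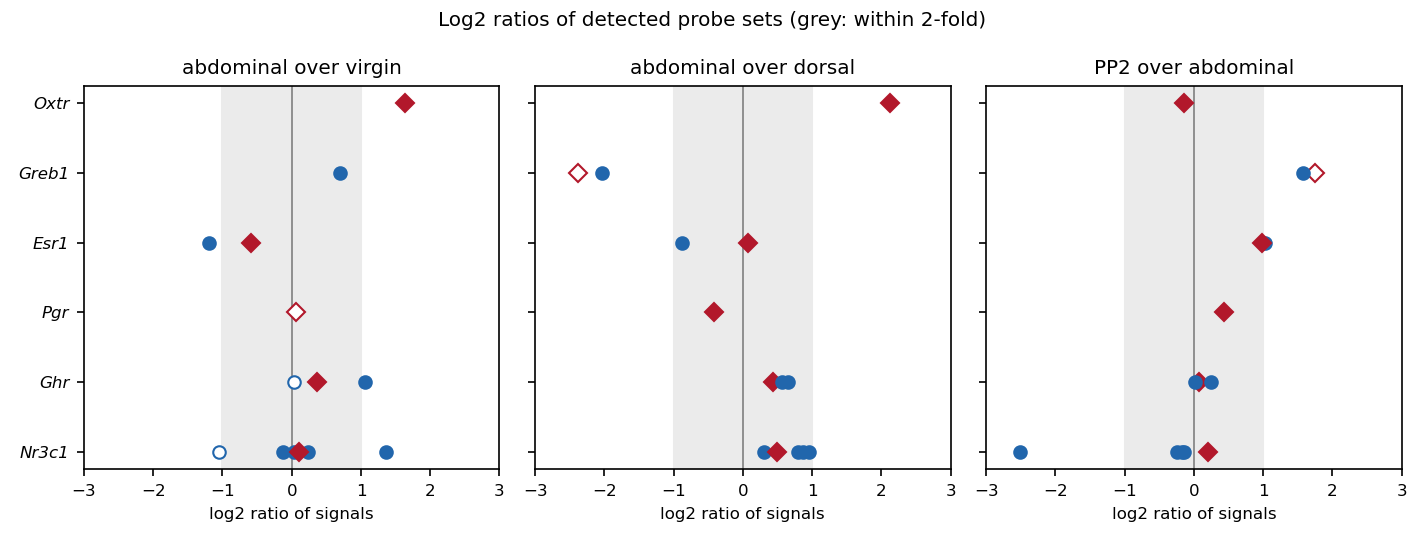
Log2 ratios of signals for detected probe sets of the 6 detected genes in the 3 comparisons, with red diamonds for the representative probe set, blue circles for other probe sets, open symbols for lower bounds and a grey band within 2-fold. *Oxtr* lies at 1.63 against virgin skin, 2.13 against dorsal skin and -0.15 with PP2, and both *Greb1* symbols lie outside the band against dorsal skin and with PP2.

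Counted by representative probe set, 1 of 5 detected genes was higher in 15 dpc abdominal than in virgin skin, *Oxtr*, and 0 were lower, where 3.41% of 12744 genes were higher and 3.55% lower. Against dorsal skin, 1 of 6 was higher, *Oxtr*, and 1 lower, *Greb1*, with 5.25% of 12808 genes higher and 4.96% lower. With PP2, 1 of 6 was higher than in abdominal skin, *Greb1*, and 0 were lower, where 3.74% of 12955 genes were higher and 4.89% lower. In each direction the number of genes was 0 or 1, too few for a share to be set against the background.

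By probe set, 14 were detected in each comparison. Abdominal skin against virgin skin had 3 higher, 1 each of *Oxtr*, *Ghr* and *Nr3c1*, and 2 lower, 1 each of *Esr1* and *Nr3c1*, beside 3.48% and 4.09% of 23275 probe sets. Against dorsal skin there were 1 higher (*Oxtr*) and 2 lower (both *Greb1*), beside 5.51% and 5.76% of 23398. PP2 against abdominal skin had 3 higher, 2 of *Greb1* and 1 of *Esr1*, and 1 lower, of *Nr3c1*, beside 3.39% and 7.89% of 23627. Probe sets of 1 gene share its RNA and are no replicates of each other, and *Nr3c1* had probe sets past the limit in both directions against virgin skin. All 3 comparisons share the abdominal array, so an error on that array would enter each of them.

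Over the 4 arrays, *Nr3c1* had a log2 range of 0.71, *Ghr* of 0.51 and *Esr1* of 1.05, and 38.2%, 59.5% and 17.4% of the 11086 genes present on all arrays ranged more widely. The genes whose pattern was closest to each receptor were found by the root mean square difference of mean-centred log2 signals over the 4 arrays, among 11082 genes. For *Oxtr* they were *Kcnd3*, a potassium channel gene, at 0.138, *Aldh1l2* at 0.160 and *Slain1* at 0.174, and 0 genes came within 0.1. *Kcnd3* read 165 on the virgin, 94.15 on the dorsal, 444.4 on the abdominal and 358.8 on the PP2 array, high on the same 2 arrays as *Oxtr*. For *Esr1* they were *1810055G02Rik* at 0.006, *Cyp2b9* at 0.053 and *Pepd* at 0.056, with 10 genes within 0.1. For *Ghr* (*Tmem128*, *Asnsd1*, *Trmt2b*) and *Nr3c1* (*Stk39*, *Pgap1*, *Ier3ip1*) the closest differed by 0.008 to 0.014, and 515 and 472 genes came within 0.1. The pattern of *Oxtr* was therefore shared closely by few genes and that of *Ghr* and *Nr3c1* by many, which is a description over 4 arrays.

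Further genes were counted in lists, each beside the shares of all genes past the limit. Those shares were 3.41% higher and 3.55% lower against virgin skin, 5.25% and 4.96% against dorsal skin, and 3.74% and 4.89% with PP2. Other receptors for hormones and their relatives were taken as a list of 22 genes on the array, 17 of them detected. Against virgin skin, 0 of 16 were higher in abdominal skin and 1 lower, *Paqr7*, a membrane progestin receptor, which read 5167 on the virgin, 842.4 on the dorsal, 2525 on the abdominal and 2008 on the PP2 array. Its second probe set, present on all 4 arrays, gave a log2 ratio of -0.22 against virgin skin, under the limit, where the first gave -1.03, and of -1.01 with PP2, past it, where the first gave -0.33. Against dorsal skin, 2 of 17 were higher, *Paqr7* by 1.58 on the log2 scale and *Avpr1a*, a vasopressin receptor closely related to *Oxtr*, by 3.90-fold. *Avpr1a* read 757.2 on the virgin, 215.3 on the dorsal, 839.6 on the abdominal and 738.3 on the PP2 array, so it was low in dorsal skin alone and did not have the low virgin signal of *Oxtr*. The genes lower than in dorsal skin were *Lepr*, the leptin receptor (6814, 11853, 5166 and 10829), by 2.29-fold and *Fshr*, present on the dorsal array alone, by at least 3.04-fold. By representative probe set, *Lepr* was also the only 1 of 16 past the limit with PP2, 2.10-fold higher. Its other probe sets, present on all 4 arrays, gave log2 ratios of -0.67 and -0.79 against dorsal skin, under the limit. With PP2 they gave 1.35 and 1.01, past it. The median log2 ratio of the list was 0.06 against virgin, 0.07 against dorsal skin and -0.15 with PP2, beside 0.02, 0.04 and 0.00 over all genes. *Esr2*, the second estrogen receptor, was present on no array.

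Of 7 hormone ligand genes, 3 were detected, and by representative probe set 0 passed the limit in any comparison. *Igf1*, which growth hormone induces in many tissues, read 4011 on the virgin, 5023 on the dorsal, 2529 on the abdominal and 4794 on the PP2 array, with the dorsal signal 1.99-fold the abdominal. Its other 3 probe sets gave larger log2 ratios with PP2, from 1.54 to 1.87 against 0.92, past the limit. Against dorsal skin they gave -1.37, past the limit, and -0.42 and -0.53, under it. *Igf2* was 1.88-fold over abdominal skin with PP2, and *Rln1*, a relaxin gene, at least 1.33-fold over abdominal in virgin skin at signals no higher than 28.97. The medians were -0.41, -0.49 and 0.91 over 3, 2 and 3 genes. Of 16 receptor cofactors and chaperones, 15 were detected in each comparison and 1 passed the limit, *Gata3*, a transcription factor that works beside *Esr1* in mammary epithelium, 2.07-fold higher in abdominal than virgin skin. *Carm1*, a coactivator, was 1.80-fold over abdominal in virgin skin, and the chaperone genes *Stip1* and *Fkbp4* were 1.80-fold over PP2 skin and 1.64-fold over dorsal skin in abdominal skin. The medians were -0.02, -0.06 and -0.01. A second probe set of *Fkbp4* had the opposite sign against dorsal skin.

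The estrogen response list held 22 genes with *Greb1* and *Pgr* among them, 19 detected. Against virgin skin, 1 of 18 was higher (*Myb*) and 2 were lower (*Stc2*, *Bcl2*), against dorsal skin 4 of 19 were higher (*Ccnd1*, *Cxcl12*, *Myb*, *Ccn5*) and 2 lower (*Greb1*, *Stc2*), and with PP2 3 of 19 were higher (*Greb1*, *Stc2*, *Bcl2*) and 1 lower (*Myb*). Over all genes the shares higher and lower were 3.41% and 3.55%, 5.25% and 4.96%, and 3.74% and 4.89% in these comparisons. Medians of 0.10, 0.01 and 0.02 for the list stood near those of all genes. *Stc2*, a secreted glycoprotein, read 2993 on the virgin, 1663 on the dorsal, 260.6 on the abdominal and 1336 on the PP2 array. It shared with *Greb1* the low abdominal and the higher dorsal and PP2 signals, but not the low virgin signal. *Bcl2*, which blocks apoptosis, read 3694, 1772, 1109 and 3249, and *Myb*, a transcription factor, read 19.01 (absent), 37.79, 91.22 and 37.49, high on the abdominal array. The order of arrays that the representative probe set of *Greb1* had was thus not shared by *Stc2*, *Bcl2* or *Myb*. Of the 4 other *Bcl2* probe sets, 2 gave log2 ratios of -2.23 and -1.79 against dorsal skin where the representative one gave -0.68. These alone would count as lower. Another *Myb* probe set gave 0.35 against dorsal skin, under the limit, where the representative one gave 1.27 and a further one 2.49.

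The progesterone response list had 14 genes, 13 detected, with 0 higher and 1 lower of 12 against virgin skin (*Hand2*), 0 higher and 2 lower of 12 against dorsal skin (*Hand2*, *Zbtb16*), and 1 higher (*Hand2*) and 1 lower (*Zbtb16*) of 13 with PP2. Medians were -0.05, -0.26 and 0.06. *Hand2*, a transcription factor that progesterone induces in uterine stroma, read 262.3 on the virgin, 82.36 on the dorsal, 26.95 (absent) on the abdominal and 243.3 on the PP2 array. A second *Hand2* probe set read 54.95, 36.28, 44.85 and 38.99 and did not share these differences. *Zbtb16*, a transcriptional repressor that progesterone and glucocorticoid both induce, read 528.5, 2372, 1038 and 436.1. By representative probe set, *Id4*, at 1.97-fold over abdominal in dorsal skin, and *Cebpb*, at 1.73-fold over abdominal in virgin skin, did not pass. Other *Id4* probe sets, present on every array, gave log2 ratios against dorsal skin of -1.21, past the limit, and -0.22, under it.

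Downstream of prolactin and growth hormone, 19 of 21 genes were detected. *Csn2*, the milk protein beta-casein, was higher (at least 2.11-fold) and *Igfbp3*, an insulin-like growth factor carrier, lower (2.04-fold) in abdominal than virgin skin among 18. Both were lower than in dorsal skin (2.10-fold and 2.52-fold). By representative probe set, 0 of 19 passed with PP2. Other probe sets, present on every array, passed upward with PP2, at log2 ratios of 1.20 for *Igfbp3*, 1.54 to 1.87 for *Igf1* and 1.06 for *Socs2*. The remaining *Socs2* probe sets gave -0.66 to 0.73 with PP2, under the limit. *Csn2* read 23.83 (absent) on the virgin, 105.3 on the dorsal, 50.17 on the abdominal and 37.71 on the PP2 array. It was highest where the mammary sum, made up largely of *Prom1* and *Epcam*, was highest, and the part of mammary cells was not tested. *Socs2*, a feedback inhibitor that STAT5 induces, was 1.96-fold over abdominal in dorsal skin, where the *Ghr* signal was lower. Other *Socs2* probe sets, present on every array, gave log2 ratios against dorsal skin of -1.09, -1.16, -1.15 and -1.43, past the limit. A further one gave -0.69, under it. Medians were -0.07, -0.21 and 0.12. In oxytocin and relaxin signalling, 20 of 21 genes were detected. By representative probe set, 0 were past the limit against virgin skin and 2 were higher against dorsal skin. These were *Rgs4*, a brake on G protein signalling, by 3.38-fold and *Mylk*, the kinase that starts smooth muscle contraction, by 3.03-fold. With PP2, 2 were higher (*Ptgs2* by 2.31-fold and *Rgs2* by 2.06-fold) and 1 lower (*Rgs4* by 2.02-fold). Other probe sets of these genes differed with PP2: the log2 ratio was 0.31 for *Ptgs2* and 0.75 to 0.82 for *Rgs2*, under the limit, and -1.35 and -1.10 for *Mylk*, past it where the representative probe set was not. For *Rgs4* they gave -0.54 and -2.75. Against virgin skin the same *Rgs4* probe sets gave 1.22 and 1.51, past the limit, where the representative one gave 0.98. *Rgs4* read 566.1 on the virgin, 329.9 on the dorsal, 1115 on the abdominal and 551.4 on the PP2 array, and *Mylk* 4403, 2285, 6933 and 5095. Both were lowest in dorsal and highest in abdominal skin, as *Oxtr* was. The medians were -0.03, 0.07 and -0.29.

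**Figure D3:**
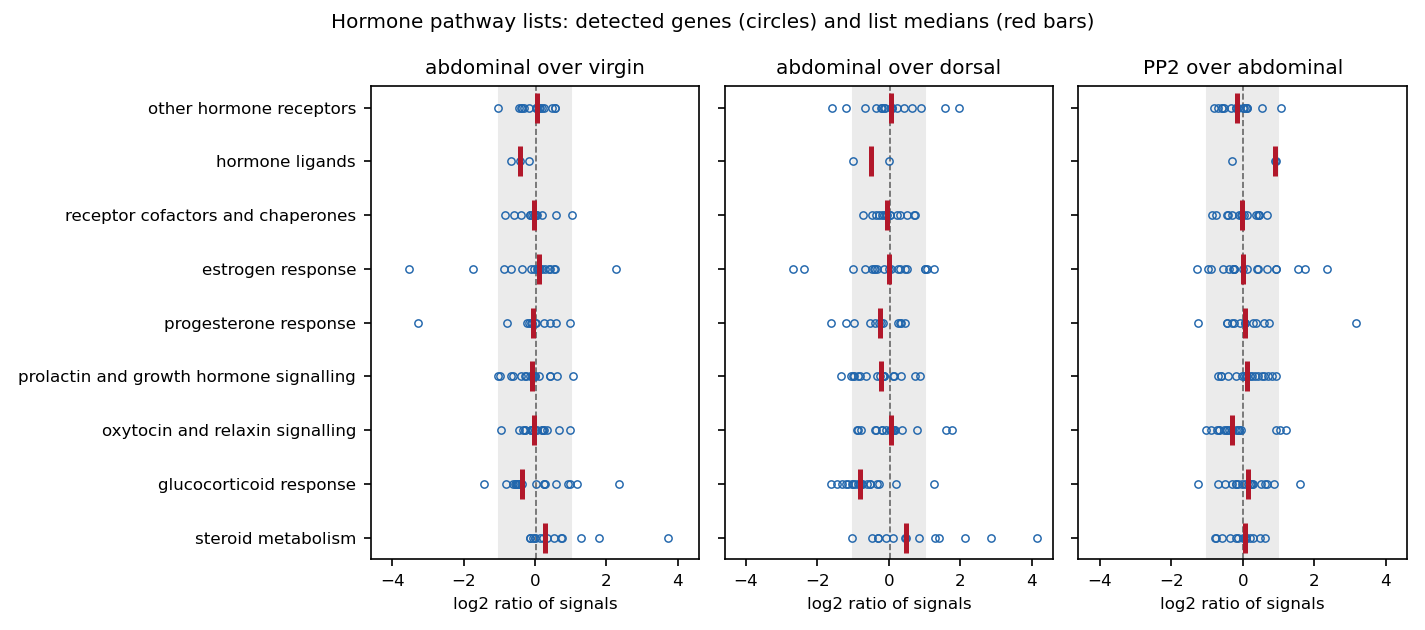
Log2 ratio of signals for each detected gene (open circles) of 9 hormone pathway lists in the 3 comparisons, with a red bar at the median of the list, a dashed line at the median of all genes and a grey band within 2-fold. The glucocorticoid response lies to the left against dorsal skin (median -0.80) and steroid metabolism to the right (median 0.48), and most other medians lie near the dashed line.

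The glucocorticoid response genes stood farther from dorsal skin than *Nr3c1* did, and in the other direction. Of 20 genes 19 were detected, and 7 of them were lower in abdominal than dorsal skin (*Pdk4*, *Per1*, *Cebpd*, *Zbtb16*, *Tsc22d3*, *Mt1* and *Mt2*) and 1 higher (*Lcn2*). Over all genes 4.96% were lower and 5.25% higher. The median log2 ratio was -0.80, beside 0.04 over all genes. On the dorsal array the keratinocyte sum (140370) and the actin 3′ to 5′ quotient (4.14) were highest and the summed signal of 6 macrophage markers was lowest, at 748.1 against 3056 on the virgin, 1918 on the abdominal and 1357 on the PP2 array, and their part in these signals was not tested. *Pdk4*, which restrains glucose oxidation, read 467.9 on the virgin, 2736 on the dorsal, 884.7 on the abdominal and 1423 on the PP2 array, and *Per1*, a circadian clock gene, 933.8, 2005, 734.3 and 1127. *Tsc22d3*, which encodes the glucocorticoid-induced leucine zipper, read 7867, 11692, 5350 and 7611, and *Mt1* and *Mt2*, the metallothionein genes, were also highest on the dorsal array, at 22639 and 23635. The representative probe set of *Nr3c1* was lowest on that array. Against virgin skin, 2 of 19 were higher (*Angptl4* by 5.07-fold and *Sult1a1* by 2.24-fold) and 1 lower (*Errfi1* by 2.68-fold), with a median of -0.35. With PP2, *Errfi1* was 3.03-fold higher by the probe set that represents it and not by the other, *Zbtb16* was 2.38-fold lower by the probe set that represents it, with log2 ratios of -0.34 and -0.59 by its other 2, and the median was 0.16. *Angptl4* read 825.3, 7067, 4181 and 4119, low in virgin skin alone. A second *Angptl4* probe set, also lowest in virgin skin, gave a log2 ratio of -1.16 against dorsal skin, past the limit, where the first gave -0.76. Of the list, 3 genes belong to another list as well.

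Enzymes that make and break down steroids had a median above that of all genes in each comparison. Of 21 genes 16 were detected. In abdominal against virgin skin 3 of 14 were higher (*Cyp17a1*, *Hsd17b2*, *Akr1c18*) and 0 lower, with a median of 0.28, and against dorsal skin 5 of 14 were higher (*Cyp17a1*, *Akr1c18*, *Hsd17b2*, *Hsd17b12*, *Cyp7b1*) and 1 lower (*Cyp11a1*), with a median of 0.48, beside 5.25% of all genes higher and 4.96% lower. With PP2, 0 of 16 passed and the median was 0.06. *Cyp17a1*, which turns progestins into androgen precursors, read 223.7 on the virgin and 166.1 on the dorsal array, absent on both, and 2964 on the abdominal and 1743 on the PP2 array, at least 13.2-fold over virgin and 17.8-fold over dorsal skin in abdominal skin. *Akr1c18*, which inactivates progesterone, read 4169, 1383, 10143 and 9183, and *Hsd17b2*, which inactivates estradiol, 188.2, 147.7, 650.1 and 431.3. *Akr1c18* and *Hsd17b2* had the order of arrays that *Oxtr* had, with the abdominal array first, then PP2, then virgin and dorsal last, and *Cyp17a1* was detected on the first 2 of these alone. *Hsd17b12* read 14138, 5180, 13643 and 12081, low in dorsal skin alone. The adipocyte sum, mostly *Fabp4*, and the hair sheath sum, given with *Oxtr*, were also highest on the abdominal array, and their part in the enzyme signals was not tested.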

How the data were processed

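The authors hybridised labelled RNA of dermal cells to Affymetrix mouse arrays, 1 per condition, and deposited for each probe set a MAS5 signal, an intensity on a linear scale that their software scales per array, with a detection call. The submitters' processing notes name Affymetrix Expression Console version 1. The signals were used as deposited, and the table of all arrays differed from the single-array tables in 0 values. Samples were grouped by their titles, and every column of values had a sample (0 without).

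By the annotation of the platform, 34945 probe sets name 1 gene, 932 name several and were left out, and 34741 matched the RefSeq gene table of GRCm38.p6, which changed 0 symbols. *Prlr* was not analysed here. The files name no genome build. A probe set entered a comparison when called present on at least 1 of its 2 arrays. For a dimmer signal that was not called present, the ratio was taken against the higher of its signal and the lowest signal called present on that array, and written as "at least". Cell type sums add the signals of representative probe sets.

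The genes, lists and rules were chosen with earlier results of these data known. All members are named, with the 4 detected genes of each list with the largest ratio in any comparison and the 3 genes closest to each receptor, and names that complete a count were chosen after their values were seen. At most 5 genes of a list belong to another list too. The alternatives were other scalings, folds, detection rules, a pseudocount of 32 and other choices of probe set. The 2-fold rule was run on a copy of the virgin signals with known changes put into 200 genes and every call set to present. That run checks the arithmetic, and not the detection rule or the choice of probe set. No p-value or error can be given with 1 array per condition, and precision is limited by that number. Python 3.11.15, pandas 2.3.3, numpy 2.4.6 and matplotlib 3.10.9 were used.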

Additional observations from a re-analysis of the deposited data

How the results depend on the processing

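*Oxtr* was counted as higher in abdominal than in virgin and dorsal skin under all 9 alternatives. *Greb1* was counted against dorsal skin and with PP2 under all but the requirement of a present call on both arrays. That requirement left 0 genes lower than in dorsal skin and 0 higher with PP2. The reason is that the representative *Greb1* probe set was absent on the abdominal array. A 1.5-fold limit, no detection filter and any probe set could not take away a gene already counted. For *Oxtr*, with its only detected probe set present on every array, the present-call requirement and the mean over probe sets could not either. The number higher with PP2 became 2 when arrays were scaled to one median, at 1.5-fold, with any probe set of a gene and with the mean over detected probe sets, by adding *Esr1* in each case, and 2 with no detection filter, by adding *Rxfp1*, which no array detected. With any probe set, 3 genes were higher (*Ghr*, *Nr3c1*, *Oxtr*) and 2 lower (*Esr1*, *Nr3c1*) than in virgin skin and 1 was lower with PP2 (*Nr3c1*). The number lower than in virgin skin was 1 at 1.5-fold (*Esr1*) and 1 with no detection filter (*Rxfp1*). The log2 ratio of *Esr1* with PP2, 0.98, passed the limit at 1.04 when scaled to one median and at 1.01 as a mean over probe sets.

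The mean over probe sets also turned the sign of *Esr1* against dorsal skin, to -0.41, and of *Nr3c1* with PP2, to -0.57, both under 2-fold. Of the medians of the lists and of all genes under 5 alternatives, 137 kept their sign and 13 turned, the farthest to -0.18 (progesterone response with PP2, mean over probe sets). The medians of the glucocorticoid response and of steroid metabolism against dorsal skin kept theirs, between -0.80 and -0.71 and between 0.29 and 0.51. No paired analysis was possible because each condition has 1 array. Signals near the detection limit, as for *Pgr*, and probe sets of 1 gene that differ, as for *Nr3c1* and *Esr1*, limit what these values show.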
